A study of Mus musculus with 3 samples.

Results

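Single-bin H3K4me3 regions with an R2 mark are short stretches of chromatin in mouse pro-B cells. In them, trimethylation of lysine 4 of histone H3 (H3K4me3) was called in 1 bin of 1 kb only. Methylation of the nearby arginine 2 was called in the same bin. The regions were chosen by read counts alone. A bin was called for H3K4me3 at 25 reads or more, called bins were joined across at most 1 uncalled bin, and regions of exactly 1 bin were kept if they held 15 or more reads of H3R2me2s (symmetric dimethylation of arginine 2) or 16 or more of H3R2me2sK4me3 (both modifications on 1 tail, here the combined mark). There were 1431 such regions among 5213 single-bin regions and 18461 H3K4me3 regions in all. They made up 27.5% of the single-bin regions (26.2 to 28.7) and 7.75% of all H3K4me3 regions (7.37 to 8.15, exact Clopper-Pearson 95% intervals here and below). Of the bins called for H3K4me3 in regions of any width, 62.5% were called for either arginine mark, and of all bins with a read 1.63% were. These counts come from the values that chose the regions, so the gap between single bins and all H3K4me3 bins is a description and not a test.

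H3K4me3 is the modification best known from promoters of active and poised genes, where it is laid down by SET1 and MLL complexes. Arginine 2 sits beside lysine 4 on the H3 tail, and its methylation state affects whether proteins that read or write lysine 4 methylation can bind: asymmetric dimethylation of arginine 2 is known to hinder MLL-type methyltransferases, while the symmetric form is known to be compatible with binding of WDR5, a subunit of those complexes. Symmetric dimethylation of H3 arginine 2 has been ascribed to PRMT5 and PRMT7. Whether the regions lie at promoters or elsewhere was not analysed here.

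The libraries came from Abelson-transformed pro-B cells with the genotype RAG2-/-, from a strain labelled C57BL/7, and all 3 share this genotype and transformation. Pro-B cells are an early stage of the B lineage, here kept growing by transformation with Abelson virus; without RAG2, a part of the V(D)J recombinase, they cannot rearrange antigen receptor genes. Each antibody had 1 library: H3R2me2s with 6923765 mapped reads, the combined mark with 7128852 and H3K4me3 with 13898471. The first 2 antibodies were made by the submitters and the third was bought. No library repeats an antibody, so that intervals cover counting error only, reads made by PCR are not independent molecules, and no difference below has a replicate check or a p-value. An input library was not used here. Cell identity was not checked against marker genes, and the genes at the coordinates below were not looked up, because no annotation of the build mm9 was used.

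Levels are given as multiples of background, the mean reads per bin more than 5 kb from any called bin, which was 2.35 reads in the H3R2me2s library, 1.86 in that of the combined mark and 2.98 in that of H3K4me3. The 1431 regions held a mean of 15.2 ± 7.89 H3R2me2s reads (SD over 1431 regions), 22.4 ± 14.7 combined-mark reads and 65.1 ± 35.9 H3K4me3 reads. The lowest, median and highest counts were 1, 15 and 143 for H3R2me2s. They were 3, 19 and 156 for the combined mark and 25, 56 and 326 for H3K4me3. The mean levels were 6.46 times background for H3R2me2s (6.38 to 6.55, exact Poisson interval), 12.0 times for the combined mark (11.9 to 12.1) and 21.9 times for H3K4me3 (21.7 to 22.0). The 3782 single-bin regions without an arginine mark had levels of 3.37, 4.56 and 11.5 in the same order. The regions without a call thus also stood above background in both arginine marks, below the read limits.

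Calls divided the regions into 3 classes. The combined mark alone was called in 641 (44.8%, 42.2 to 47.4), both marks in 443 (31.0%, 28.6 to 33.4) and H3R2me2s alone in 347 (24.2%, 22.0 to 26.6). Over all bins with a read, H3R2me2s was called in 1.23% and the combined mark in 1.45%. H3K4me3 differed between the classes, with medians of 83 reads where both were called, 56 where the combined mark alone was called and 37 where H3R2me2s alone was called. The interquartile ranges of the H3K4me3 reads were 62.5 to 117, 43 to 71 and 30 to 45. The interquartile ranges of the class with both marks and the class with H3R2me2s alone did not overlap. Where only the combined mark was called, H3R2me2s was still at 4.15 times background (4.05 to 4.26). Where only H3R2me2s was called, the combined mark was at 5.23 times (5.06 to 5.41).

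**Figure D1:**
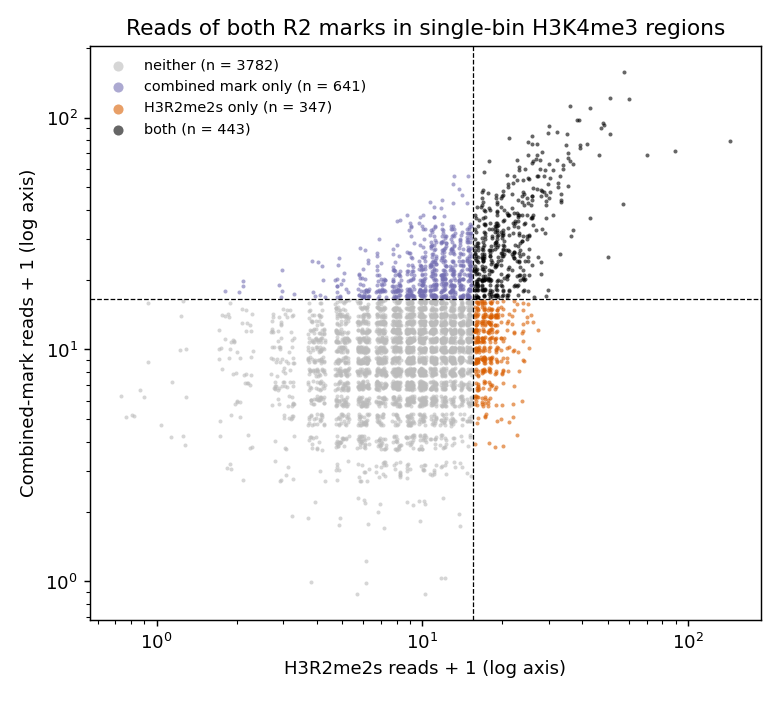
Reads of H3R2me2s (x axis) and of the combined mark (y axis) in each of the 5213 single-bin H3K4me3 regions, as reads plus 1 on log axes, with small random offsets so that equal counts can be seen and dashed lines at the limits of 15 and 16 reads. The 347 regions called for H3R2me2s alone lie in a narrow strip of 15 to 26 reads beside the limit, while the 443 regions with both calls reach 143 and 156 reads.

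Across all single-bin regions the calls of the 2 arginine antibodies went together, which is a comparison between separate libraries. The combined mark was called in 56.1% of the 790 single-bin regions called for H3R2me2s (52.5 to 59.6) and in 14.5% of the 4423 others (13.5 to 15.6). Conversely, H3R2me2s was called in 40.9% of the 1084 regions called for the combined mark (37.9 to 43.9) and in 8.40% of the other 4129 (7.58 to 9.29). H3K4me3 itself was higher where either was called (the shares by H3K4me3 class follow), and its part in this was not tested.

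Many regions lay close to the limits. H3R2me2s stood at exactly 15 reads in 157 single-bin regions and at 14 in 260, and their median H3K4me3 reads were 42 and 39.5. The combined mark stood at exactly 16 in 142 and at 15 in 165, with medians of 46 and 43 H3K4me3 reads. Of the 1431 regions, 564 (39.4%, 36.9 to 42.0) were no more than 2 reads over either limit. On the H3K4me3 side, 24 stood at the limit of 25 reads and 118 held under 30.

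The share of single-bin regions with an arginine mark was higher with each step in H3K4me3. It was 7.10% at 25 to 29 H3K4me3 reads (118 of 1662 regions), 10.9% at 30 to 34 (109 of 998) and 25.7% at 35 to 49 (364 of 1415). It was 60.5% at 50 to 74 reads (430 of 711), 93.2% at 75 to 99 (219 of 235) and 99.5% at 100 reads or more (191 of 192). In the weakest class H3R2me2s was called more often, in 5.42% (4.38 to 6.61) against 2.17% for the combined mark (1.52 to 2.99). The levels in that class had the opposite order, with H3R2me2s at 3.41 times background and the combined mark at 4.13 times, and the 2 limits stand at unlike multiples of background. At 35 to 49 reads the order of the calls was the other way, with overlapping intervals. The shares were 12.6% for H3R2me2s (10.9 to 14.4) and 15.8% for the combined mark (14.0 to 17.8). At 50 to 74 reads they were 25.5% (22.3 to 28.8) and 53.0% (49.3 to 56.7). At 100 reads or more the shares were 82.3% (76.1 to 87.4) and 99.5% (97.1 to 99.99).

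Single bins were then set beside wider regions at a given H3K4me3 count, and the result differed by mark and by class. For this comparison the highest H3K4me3 bin of each wider region was used, and all single-bin regions, with or without a call. At 35 to 49 H3K4me3 reads, H3R2me2s was called in 12.6% of single-bin regions (10.9 to 14.4), 14.3% in regions of 2 bins (11.8 to 17.2), 14.9% in regions of 3 bins (9.999 to 21.1) and 25.6% of 90 regions of 4 to 5 bins (16.9 to 35.8). The last interval lay above that of the single bins, while the combined mark was called in 15.8% (14.0 to 17.8), 17.5%, 14.4% and 12.2% (6.26 to 20.8), with overlapping intervals. At 50 to 74 H3K4me3 reads, the combined mark was called in 53.0% of single-bin regions, 55.7% of 830 highest bins in regions of 2 bins (52.2 to 59.1) 58.7% of 303 in regions of 3 bins (53.0 to 64.3) and 52.3% of 153 in regions of 4 to 5 bins (44.1 to 60.4). H3R2me2s was called in 25.5%, 28.6% (25.5 to 31.8), 32.7% (27.4 to 38.3) and 34.0% (26.5 to 42.1) of the same bins, which averaged 59.5, 61.4, 61.7 and 63.1 H3K4me3 reads. All of these intervals of shares overlap. Not all intervals of the mean levels did. The combined mark was at 9.05 times background in single bins (8.89 to 9.22), below 3-bin regions at 9.84 (9.58 to 10.1). In regions of 4 to 5 bins it was at 8.85 (8.51 to 9.205). H3R2me2s was at 4.999 in single bins (4.892 to 5.107) and 5.41 in 3-bin regions (5.24 to 5.59). In regions of 4 to 5 bins it was at 5.53 (5.29 to 5.78). The part of H3K4me3 in this was not tested. At 75 to 99 reads, H3R2me2s was called in 48.1% of single-bin regions (41.5 to 54.7), 52.8% in regions of 2 bins (48.3 to 57.2), 63.0% in regions of 3 bins (57.5 to 68.2) and 51.3% in regions of 4 to 5 bins (44.0 to 58.5). There the interval of the 3-bin regions lay above that of the single bins, and that of the widest group did not. In this class the combined mark was called in 90.6%, 91.7%, 94.1% and 89.6%, with overlapping intervals. Its level was 14.01 times background in single bins (13.7 to 14.4) and 15.7 in 3-bin regions (15.4 to 15.98), with intervals apart. The H3R2me2s levels were 6.53 (6.32 to 6.75) and 7.02 (6.83 to 7.21). For both marks the level intervals of the other widths overlapped those of single bins. Mean H3K4me3 in the bins compared was nearly equal, at 85.4, 86.1, 86.7 and 87.1 reads. Above 100 reads the bins could not be matched, since single bins averaged 136 H3K4me3 reads and the highest bins of 3-bin regions 223.

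**Figure D2:**
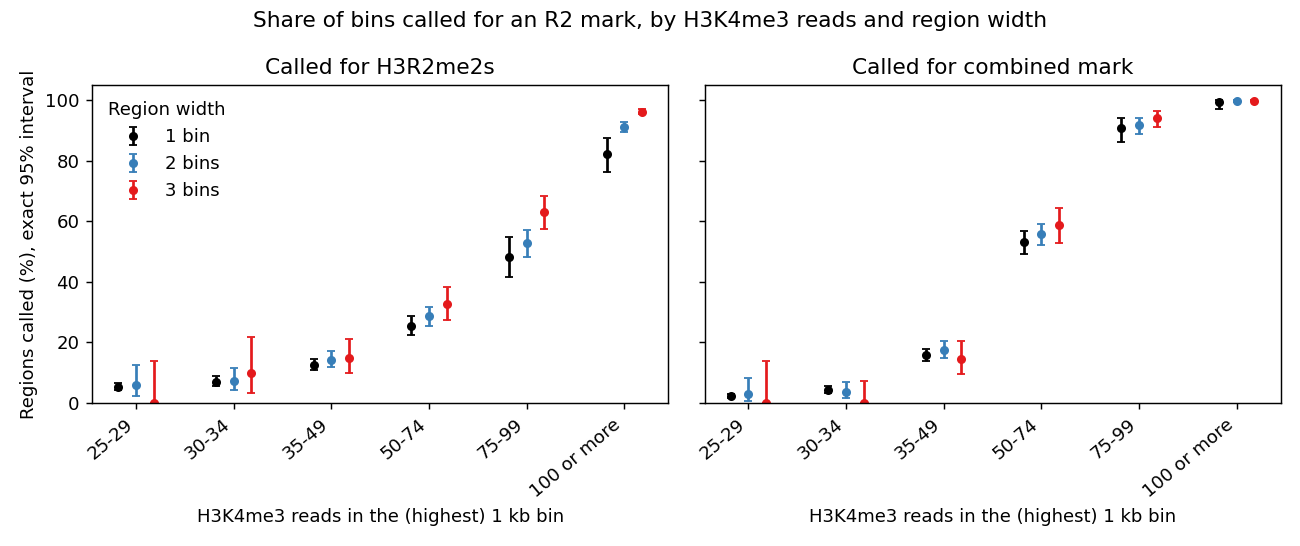
Percent of 1 kb bins called for H3R2me2s (left) and for the combined mark (right), by the H3K4me3 reads of the bin (x axis), for single-bin regions (black) and for the highest H3K4me3 bin of regions of 2 bins (blue) and 3 bins (red); bars are exact 95% intervals. At 50 to 74 reads the intervals of the 3 widths overlap, and at 75 to 99 reads H3R2me2s was called in 48.1% of single bins and 63.0% of 3-bin regions.

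Reads of the reverse strand gave values outside the choice. Single-bin regions, called for H3K4me3 with both strands, were chosen again at 8 or more forward-strand reads of either arginine mark, and measured with reverse-strand reads. This gave 1691 regions. On the reverse strand their H3R2me2s level was 5.65 times background (5.55 to 5.76) and their combined-mark level 10.4 times (10.3 to 10.6). The 3522 single-bin regions not chosen had 3.57 times (3.52 to 3.63) and 4.82 times (4.74 to 4.89). The chosen regions were thus higher also in arginine reads that had no part in the choice, although both strands come from the same library. Their H3K4me3 was higher too, at 20.1 against 11.5 times on the reverse strand, and its part in the difference was not tested.

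The classes were measured in the same way. Regions chosen for H3R2me2s alone numbered 421, and their H3R2me2s level was 7.76 times background on the forward strand and 5.08 (4.88 to 5.28) on the reverse strand. On the reverse strand their combined-mark level was 5.42 (5.20 to 5.66), close to the H3R2me2s level. H3R2me2s reached 8 reverse reads again in 24.9% of them, beside 21.9% of the regions chosen for the combined mark alone and 9.51% of the regions not chosen. Regions chosen for the combined mark alone numbered 839, and their combined-mark level was 11.4 on the forward strand and 9.49 (9.28 to 9.71) on the reverse strand, where 53.8% reached 8 reads again, beside 12.4% of the regions not chosen. The 431 regions chosen for both had forward and reverse levels of 9.64 and 8.25 (7.998 to 8.50) for H3R2me2s. For the combined mark they were 18.1 and 17.1 (16.7 to 17.5). A lower level on the reverse strand is built into a choice on forward reads, and more so for classes near the limit, so that the size of the drop is not compared between classes. H3K4me3 was nearly equal on both strands in every class, for example 12.95 and 12.8 in the class with H3R2me2s alone.

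**Figure D3:**
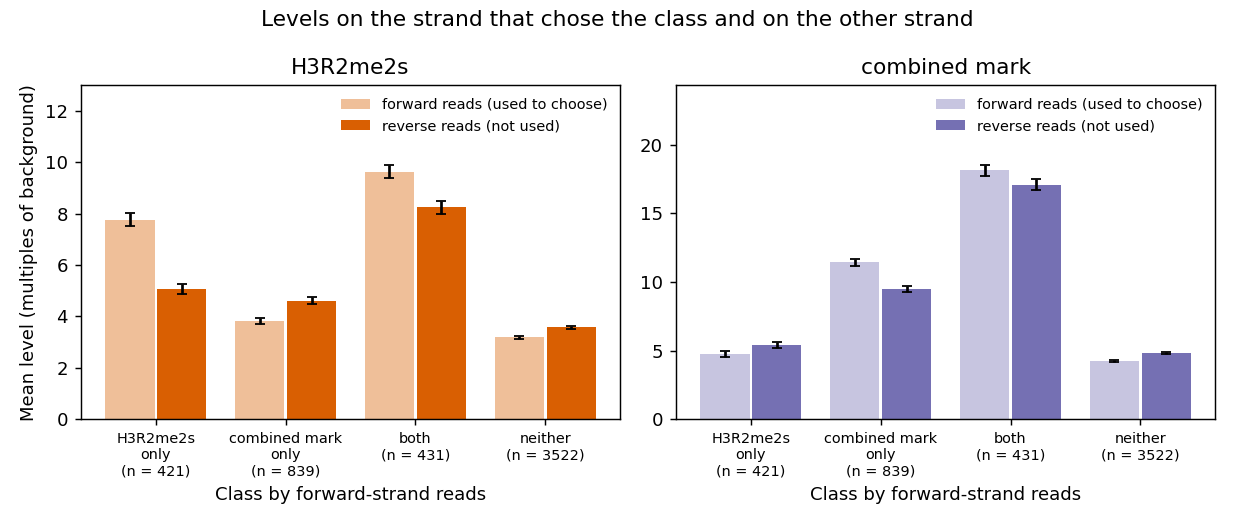
Mean level, in multiples of background, of H3R2me2s (left) and of the combined mark (right) in single-bin regions put into classes by their forward-strand reads; pale bars are the forward reads that chose the class, full bars the reverse reads, and error bars exact 95% Poisson intervals. The H3R2me2s level is 7.76 on the forward strand and 5.08 on the reverse strand in the class chosen for H3R2me2s alone. In the class with both marks it is 9.64 and 8.25. A lower reverse level is built into a choice on forward reads, so that the drops are not compared between classes.

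Counts on opposite strands were also correlated over the 5213 single-bin regions, given here as a description because the points share libraries and mappability. The Spearman rho between strands, averaged over both directions where antibodies differ, was 0.451 within H3R2me2s, 0.551 within the combined mark and 0.574 within H3K4me3. Between antibodies on opposite strands it was 0.509 for the combined mark with H3K4me3, 0.306 for H3R2me2s with H3K4me3 and 0.302 for H3R2me2s with the combined mark. The combined mark thus followed H3K4me3 nearly as closely as its own other strand, and H3R2me2s did so less. H3R2me2s also had the lowest rho with its own other strand, and all regions were chosen on H3K4me3 reads. The part of these in the order was not tested.

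Within H3K4me3 classes, the arginine reads varied by more than counting gives. The variance of H3R2me2s reads divided by their mean, which is 1 for counting alone, was 2.02 at 25 to 29 H3K4me3 reads, 1.86 at 30 to 34, 1.86 at 35 to 49 and 2.45 at 50 to 74. For the combined mark it was 1.57, 1.49, 1.91 and 2.79. At 75 to 99 reads the H3R2me2s value was 6.04, and without 1 region on chromosome 17 described below it was 1.55. The combined-mark value there was 3.09, and 2.68 without that region. At 100 to 326 reads the values were 4.94 for H3R2me2s and 10.5 for the combined mark. Without the 13 regions described below, where H3R2me2s exceeded H3K4me3, H3R2me2s had 1.79 at 25 to 29, 1.84 at 30 to 34 and 2.13 at 50 to 74. H3K4me3 is not equal within a class, and its part in these values was not tested.

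Per unit of H3K4me3 the 2 marks differed in how they went with its strength, and this depended in part on the background that was subtracted. With the genome-wide background, net H3R2me2s per net H3K4me3 over all single-bin regions was 0.302, 0.272, 0.239, 0.211, 0.1999 and 0.201 from the weakest to the strongest H3K4me3 class. With the local level at 2 and 3 kb from each region subtracted in its place, it was 0.222, 0.208, 0.189, 0.1797, 0.1799 and 0.192. The local level of H3R2me2s was 2.08 times the genome-wide background around the weakest class and 1.74 times around the strongest, so that the local ratio was flatter. For the combined mark the local ratio was 0.333, 0.321, 0.355, 0.407, 0.462 and 0.544, and the genome-wide one 0.392, 0.374, 0.387, 0.425, 0.470 and 0.544. The combined mark per H3K4me3 was higher in strong single bins by either background. Antibodies were not calibrated against each other, so these are ratios of signals and not shares of tails.

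Within the bin, the marks were piled on the same short stretch. The middle of each region was set at its median H3K4me3 read, after moving reads 75 bp. It lay well inside the bin, between 230 and 760 bp from its start in 90% of regions, with a median of 507. Around it, H3R2me2s stood at 11.1 times background within 100 bp, 5.79 times at 200 to 300 bp, 3.75 times at 400 to 500 bp and 2.21 times at 900 to 1000 bp. The combined mark stood at 24.96, 9.88, 5.003 and 2.43 times, and H3K4me3 at 44.6, 18.3, 9.15 and 3.92 times. Between 1 and 2 kb the levels were 2.10, 2.17 and 3.08. Over this local level, 57.6% of H3R2me2s within 1 kb lay within 200 bp of the middle, beside 63.7% of the combined mark and 60.2% of H3K4me3. The marks were piled up also in the 3782 single-bin regions without an arginine mark, where these shares were 47.1%, 53.9% and 54.6%. Since the middle was set on the H3K4me3 reads themselves, the H3K4me3 peak is in part a product of that choice.

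The middle of each arginine mark fell near that of H3K4me3. Both medians were taken from reads in the same 1 kb bin, so that nearness is in part built in. No distance for evenly spread reads was computed. In the 1267 regions with 10 or more combined-mark reads, the median combined-mark read lay 38 bp from the median H3K4me3 read. In the 1159 regions with 10 or more H3R2me2s reads, this distance was 62.5 bp. These distances, combined mark first, were 31 and 43.5 bp in the class with both marks, where reads are most numerous, and 63 and 103 bp in the single-bin regions without an arginine mark, which hold fewer reads. The spread of reads within the bin, as the interquartile range of their positions, had a median of 271 bp for the combined mark, 311 bp for H3K4me3 and 321 bp for H3R2me2s. In single-bin regions without an arginine mark these were 305, 344 and 356 bp, where background is a larger part of the reads.

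**Figure D4:**
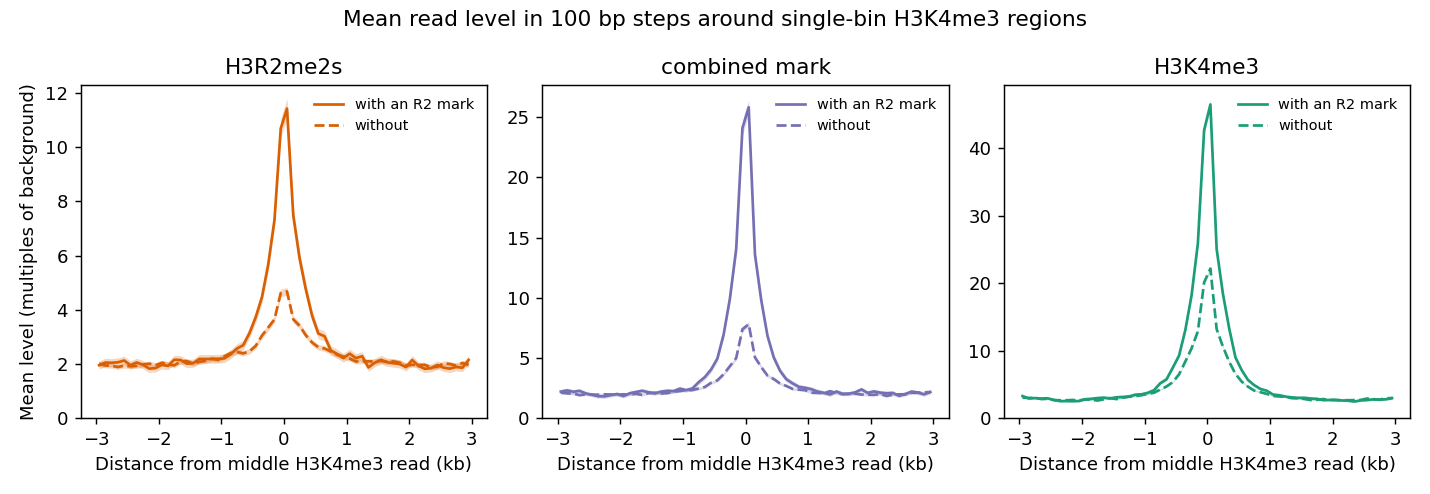
Mean level in 100 bp steps (y axis, multiples of background, with shaded exact 95% Poisson intervals) against the distance from the middle H3K4me3 read (x axis, kb) for H3R2me2s, the combined mark and H3K4me3, in the 1431 regions with an arginine mark (full lines) and the 3782 without (dashed lines). All 3 marks peak at the centre, and between 2 and 3 kb the 2 sets lie close together, at 1.96 times background in both for H3R2me2s.

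Both arginine marks were low in the adjacent bins. The choice used arginine reads in the region's own bin only. It still reaches the adjacent bins through H3K4me3, which the rule keeps under 25 reads there. Arginine calls were fewer at lower H3K4me3, so that the low level in adjacent bins is in part built into the choice. In those bins H3R2me2s was at 2.42 times background (2.38 to 2.45) around the 1431 regions and at 2.32 times (2.30 to 2.35) around the 3782 single-bin regions without an arginine mark, a ratio of 1.04 (1.02 to 1.06). Within H3K4me3 classes the order was not the same throughout. H3R2me2s there was at 2.69 in regions with a call and 2.31 without at 25 to 29 H3K4me3 reads, 2.68 and 2.36 at 30 to 34 and 2.46 and 2.33 at 35 to 49, but 2.24 and 2.27 at 50 to 74 and 2.39 and 2.44 at 75 to 99. For the combined mark the levels were 2.68 (2.63 to 2.72) and 2.42 (2.39 to 2.45), a ratio of 1.11 (1.08 to 1.13), and regions with a call were higher in each class from 25 to 99 reads. Above that only 1 region had no call. For H3K4me3 they were 4.39 and 3.94, a ratio of 1.11 (1.10 to 1.13), where the rule keeps every adjacent bin under 25 reads. The ratio was above 1 on 15 of 20 chromosomes for H3R2me2s, 19 of 20 for the combined mark and 20 of 20 for H3K4me3, leaving out chromosome Y. At least 1 of the 2 adjacent bins was called for either arginine mark in 48 of the 1431 regions (3.35%, 2.48 to 4.42). Among the 3782 this was so in 94 (2.49%, 2.01 to 3.03). These shares count 2 bins per region. The share of 1.63% over all bins with a read is per bin, so that it is not in the same unit. Adjacent calls of the combined mark were in 1.05% (0.588 to 1.72) and 0.238% (0.109 to 0.451), and those of H3R2me2s in 2.45% and 2.27%.

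Farther out both arginine marks reached a low level and then a higher one. Around the 1431 regions H3R2me2s was at 1.98 times background 2 kb away, 2.13 times at 5 kb and 2.16 times at 10 kb. The combined mark was at 2.06, 2.77 and 3.10 times and H3K4me3 at 2.74, 3.94 and 4.17 times. Around the single-bin regions without an arginine mark, H3R2me2s was at 2.00 times background at 2 kb, 2.24 at 5 kb and 2.17 at 10 kb, and the combined mark at 1.98, 3.13 and 3.19. At 5 kb both were higher there than around the 1431 regions, with intervals apart (2.22 to 2.27 against 2.10 to 2.17 for H3R2me2s, and 3.10 to 3.16 against 2.73 to 2.82 for the combined mark), as was H3K4me3 at 4.38 against 3.94. The rule leaves no bin called for H3K4me3 next to a region or 2 bins away from it, so that the low level at 2 kb is in part built into the choice.

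The regions called for H3R2me2s alone had somewhat more H3R2me2s reads beside them. In their adjacent bins H3R2me2s was at 2.81 times background (2.73 to 2.89), beside 2.17 (2.12 to 2.22) for the combined mark alone and 2.46 (2.39 to 2.53) for both. The combined mark itself in adjacent bins was at 2.74, 2.51 and 2.87 times in the same order, and H3K4me3 at 4.44, 4.21 and 4.61 times. A choice on H3R2me2s reads near the limit favours places where the local level of such reads is high. Without an input library, more of the mark and a generally higher read level cannot be told apart. For the regions called for H3R2me2s alone, the median distance to the nearest other H3K4me3 region was 12 kb (9 to 14). This was shorter than the 18 kb (16 to 21) for the combined mark alone, while its interval overlapped that of the class with both, at 15 kb (13 to 18).

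In position the 1431 regions and the other single-bin regions had overlapping intervals on each measure taken. Their median distance to the nearest other H3K4me3 region was 16 kb (14 to 17), against 15 kb (14 to 16) for the single-bin regions without an arginine mark and 16 kb (16 to 17) for regions of 2 to 5 bins. Of the 1431, 23.9% (21.7 to 26.2) had another H3K4me3 region within 5 kb and 8.39% (7.00 to 9.94) had none within 100 kb. In the single-bin regions without an arginine mark the shares were 25.7% (24.3 to 27.1) and 9.49% (8.58 to 10.5). The nearest neighbour held a call of either arginine mark in 70.8% (68.4 to 73.1) and 69.0% (67.5 to 70.5) of them.

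Chromosomes differed modestly in the share of single-bin regions with an arginine mark. Leaving out chromosome Y, with 1 of 2 regions, the share was highest on chromosome 17, at 35.3% (29.0 to 41.9, 79 of 224 regions), followed by chromosome 13 at 32.2% (26.5 to 38.2) and chromosome X at 32.1% (24.4 to 40.6). It was lowest on chromosome 14, at 19.6% (14.0 to 26.1, 35 of 179), and chromosome 16, at 19.9% (14.3 to 26.5). The intervals of chromosomes 14, 16 and 17 leave out the value of 27.5% over all chromosomes, and those of the others do not. Median H3K4me3 in single-bin regions was 35.5 reads on chromosome 17, 33 on chromosome 14 and 34 on chromosome 16.

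**Figure D5:**
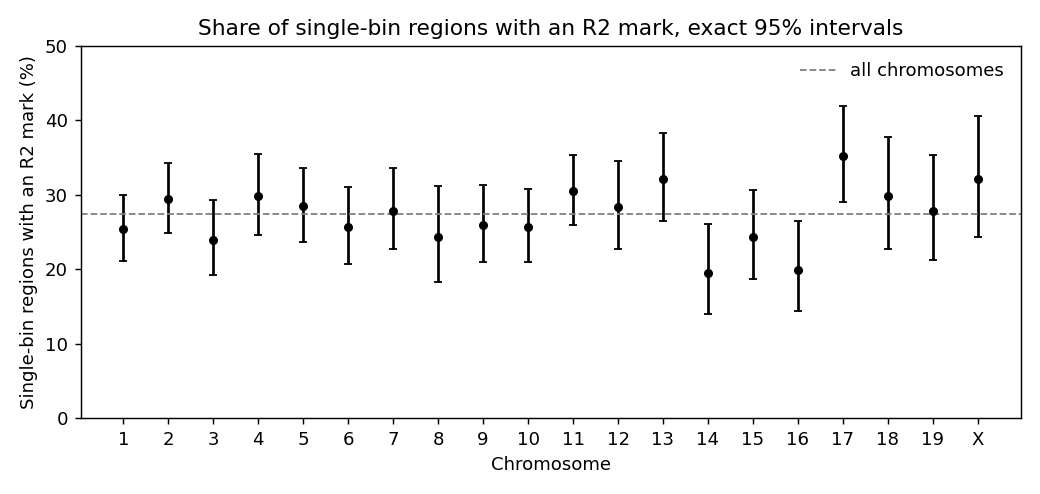
Percent of single-bin H3K4me3 regions with an arginine mark (y axis) on each chromosome (x axis), with exact 95% intervals and a dashed line at the value over all chromosomes, 27.5%; chromosome Y, with 2 single-bin regions, is not drawn. Values run from 19.6% on chromosome 14 to 35.3% on chromosome 17, and most intervals cross the line.

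The strongest regions by the combined mark were also rich in H3K4me3. They were taken as the 5 with most reads, and their values are those that chose them. At chromosome 7, 111393001 to 111394000 (mm9, as all coordinates here), there were 56 H3R2me2s reads, 156 combined-mark reads and 256 H3K4me3 reads, or 23.8, 83.8 and 85.9 times background. At chromosome 17, 56395001 to 56396000, there were 50, 120 and 209 reads in the same order. Chromosome 17, 33661001 to 33662000, had 59, 119 and 326 reads, the last of which was the highest H3K4me3 count among the 1431. Chromosome 7, 7124001 to 7125000, had 35, 111 and 220 reads, and chromosome 13, 113803001 to 113804000, had 42, 109 and 247. The CPM ratio of H3R2me2s to H3K4me3, in which each count is divided by its library's total, was taken for these 5 regions. It was 0.439, 0.480, 0.363, 0.319 and 0.341 in the order given. Over the 1431 the median was 0.461 and the interquartile range 0.323 to 0.698. All but the ratio of 0.480 lay below that median. In the adjacent bins H3R2me2s was between 1.06 and 3.40 times background, below its level in the regions themselves.

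The 5 regions with most H3R2me2s reads were chosen on the numerator of the ratio given here, so that a high ratio is favoured by the choice. Of these 5, 1 was the region on chromosome 17 at 33661001 already given, and the other 4 had a CPM ratio of H3R2me2s to H3K4me3 above 1, as did 169 of all 1431. Chromosome 17, 39980001 to 39981000, had 143 H3R2me2s reads, 78 of the combined mark and 87 of H3K4me3, a CPM ratio of H3R2me2s to H3K4me3 of 3.30 (2.51 to 4.36, exact binomial interval). Chromosome 9, 35112001 to 35113000, had 88, 71 and 133 reads, with a ratio of 1.33 (1.00 to 1.75). Chromosome 2, 98502001 to 98503000, had 69, 68 and 128 reads, with a ratio of 1.08 (0.795 to 1.46). Chromosome 17, 36621001 to 36622000, had 56, 41 and 69 reads, with a ratio of 1.63 (1.12 to 2.35).

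In 3 of these 4 the libraries stood within 1.5 times of each other in multiples of background. They were at 37.4, 38.1 and 44.7 times on chromosome 9, at 29.3, 36.5 and 43.0 times on chromosome 2, and at 23.8, 22.0 and 23.2 times on chromosome 17 at 36621001. On chromosome 9 the adjacent bins were at only 0.849, 1.34 and 1.51 times, and on chromosome 17 at 36621001 at 0.425, 0.269 and 1.18 times. The region on chromosome 2 had no other H3K4me3 region within 2936 kb. Without an input library, marking and a signal common to all libraries cannot be told apart at such places.

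The region at 39980001 on chromosome 17 differed from these. H3R2me2s stood at 60.7 times background, the combined mark at 41.9 and H3K4me3 at 29.2. A second region lay 2 kb away at 39983001 to 39984000, with 49, 24 and 26 reads and a ratio of H3R2me2s to H3K4me3 of 3.78 (2.31 to 6.34), the highest of the 1431. In the bins on both sides of each region, which include the bins between the pair, H3R2me2s was at a mean of 10.2 and 13.8 times background. All 3 libraries were above background in both regions, the second standing at 20.8, 12.9 and 8.73 times. Without an input library, marking and a signal common to all libraries cannot be told apart at this pair either. By multiples of background, H3R2me2s exceeded H3K4me3 in 13 of the 1431 regions, with a median of 0.291 over all of them. These 13 include both of this pair, the region at 36621001, 2 on chromosome X and 1 on chromosome Y. Outside the pair the excess was small, with ratios of levels from 1.01 to 1.18. Most of those regions held only 25 to 31 H3K4me3 reads, near the limit of 25. No interval was computed for the ratios of levels. The combined mark exceeded H3K4me3 in 39, with a median of 0.533. The count depends on the scale, since by CPM the ratio to H3K4me3 was above 1 in 169 regions for H3R2me2s and in 148 for the combined mark.

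The lowest ratios of H3R2me2s to H3K4me3 rested on 1 to 3 H3R2me2s reads, and regions with so few are among the 1431 only through the combined mark. Chromosome 11, 82853001 to 82854000, had 1 H3R2me2s read beside 18 of the combined mark and 57 of H3K4me3, a ratio of 0.0352 (0.000876 to 0.204). Chromosome 4, 88326001 to 88327000, had 1, 17 and 52 reads, with a ratio of 0.0386 (0.000959 to 0.225). Chromosome 15, 52584001 to 52585000, had 3, 23 and 71 reads, with a ratio of 0.0848 (0.0171 to 0.258). Their adjacent bins held 9, 7 and 16 H3R2me2s reads over 2 bins. Against the combined mark, chromosome 3, 83510001 to 83511000, had 1 H3R2me2s read beside 19, a ratio of 0.0542 (0.00130 to 0.341), and chromosome 16, 70408001 to 70409000, had 1 beside 17.

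At the other end, H3R2me2s was present with little of the combined mark in a few weak H3K4me3 regions. Chromosome 5, 113548001 to 113549000, had 22 H3R2me2s reads, 3 of the combined mark and 28 of H3K4me3, a ratio of H3R2me2s to the combined mark of 7.55 (2.27 to 39.4). Chromosome 7, 108376001 to 108377000, had 19, 3 and 29 reads, with a ratio of 6.52 (1.92 to 34.4). Chromosome 15, 53117001 to 53118000, had 21, 4 and 39 reads, with a ratio of 5.41 (1.82 to 21.7). The few reads of the combined mark at these 3 places were all on the forward strand, while H3R2me2s had 10, 10 and 12 of its reads there. The median ratio over the 1431 regions was 0.659, and it was above 1 in 425.

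Both strands contributed to the regions. Forward reads made up 49.5% of H3R2me2s (48.8 to 50.2), 49.9% of the combined mark (49.3 to 50.4) and 49.9% of H3K4me3 (49.6 to 50.2), and no region with 10 or more reads of a mark had them all on 1 strand. Repeats of a position and strand were 5.82% of the H3R2me2s reads in the regions, 2.82% of the combined-mark reads and 7.01% of the H3K4me3 reads. Over the whole libraries these shares were 5.22%, 2.64% and 6.20%. The 1431 regions held 0.315% of all H3R2me2s reads, 0.449% of the combined-mark reads and 0.670% of the H3K4me3 reads.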

How the data were processed

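Each line of the deposited files is a mapped read, 39 bases long, and the counts made from them are raw read counts without scaling by the authors. Per the submitters' processing notes the build was mm9; the aligner and any filters are not given in the sources used here. Reads were shifted downstream by 75 bp on their own strand, then counted per 1 kb bin. The limits of 25, 15 and 16 reads are 4 times the mean over 2285014 bins with a read, or the count at which the Poisson upper tail falls under 1e-06 if that was higher. The regions and lists were chosen with earlier results of these data known. Shares have exact Clopper-Pearson intervals, reads exact Poisson intervals, ratios exact binomial intervals and medians of distance order-statistic intervals, all at 95% and for counting error only. With 1 library per antibody no p-value was computed.

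Regions were named by rule: the 5 with most reads of each arginine mark, and the 3 highest and 3 lowest ratios of H3R2me2s to H3K4me3 and to the combined mark, ranked by the interval bound nearest to 1. Regions counted as exceeding H3K4me3 by multiples of background were chosen after seeing the data. Planned gene names and marker genes needed an mm9 annotation and were not analysed here, and no sequence is shown for the same reason. The region finder was tested on simulated data with planted bins. Python 3.11.15, numpy 2.4.6, pandas 2.3.3, SciPy 1.17.1 and matplotlib 3.10.9 were used.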

Additional observations from a re-analysis of the deposited data

How the results depend on the processing

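The 9 main values were recomputed under 11 settings, of which leaving out the 13 regions with H3R2me2s above H3K4me3 was chosen after seeing the data. Of 99 values, 54 stayed within the interval of the reported value (or within 1.5 times for the number of regions) and 45 moved; the cause was not tested except where the setting itself gives it. No paired analysis was possible because no antibody has a repeat library, so that leaving out a replicate could not be tried either. The number of regions was 475 with limits of 23 and 24 reads for the arginine marks and 2499 with a limit of 38 for H3K4me3, where trimmed wider regions join the single bins.

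The share of single-bin regions with an arginine mark was 26.1% with reads moved 150 bp, 37.6% at equal depth (limits of 15 reads in each library), 9.11% with the higher arginine limits and 59.0% with the higher H3K4me3 limit. The share with both calls was 34.8% at equal depth, 24.0% with the higher arginine limits and 43.9% with the higher H3K4me3 limit. Adjacent bins held a call in 5.14% when only touching bins were joined, 2.04% with 1 read per position and strand, 6.98% at equal depth, 0.421% with the higher arginine limits and 9.80% with the higher H3K4me3 limit. H3R2me2s in adjacent bins was 2.33 with joining across 4 bins, 2.47 at equal depth, 2.30 with the higher arginine limits, 2.67 with the higher H3K4me3 limit and 2.37 without chromosomes X and Y. For the combined mark there it was 2.63 with bins moved by 500 bp, 2.86 with only touching bins joined, 2.58 with joining across 4 bins, 2.91 at equal depth, 2.77 with the higher arginine limits, 3.38 with the higher H3K4me3 limit and 2.62 without X and Y. After choice on forward reads, reverse-strand H3R2me2s was 5.46 with reads moved 150 bp, 5.77 with touching bins, 5.80 with 1 read per position, 5.93 at equal depth, 7.59 and 6.73 with the higher arginine and H3K4me3 limits, and 5.50 without X and Y. The combined mark was 9.93 with reads moved 150 bp, 10.9 with touching bins, 10.6 with joining across 4 bins, 11.02 with 1 read per position, 11.9 at equal depth, 16.9 and 14.5 with the higher arginine and H3K4me3 limits, and 10.1 without X and Y. The median distance was 10 kb with touching bins, 21 kb with joining across 4 bins and 18 kb with either higher limit.

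The arginine libraries gave 2.35 and 1.86 reads per background bin, and 564 of the 1431 regions lay no more than 2 reads over either limit.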
